A study of Mus musculus with 8 samples.

Results

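The nuclear genes for the subunits of the respiratory chain and of the ATP synthase were described in mouse corneas, complex by complex. Members were taken from the table by symbol alone: Ndufa, Ndufb, Ndufc, Ndufs and Ndufv followed by a digit, Sdha to Sdhd, all that begin with Uqcr or Atp5, and the Cox4 to Cox8 genes. Predicted Gm genes, symbols with -ps and the Ndufaf assembly factors were left out. This gave 86 of the 23597 genes of the table, with 41 for complex I, 4 for complex II, 8 for complex III, 16 for complex IV and 17 for the ATP synthase. The rule goes by symbol, though it was drawn up with earlier results of these data known.

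The corneas came from mice in which dry eye was induced with scopolamine, a drug that blocks muscarinic receptors, and were collected on day 14 of the injections. ICI 118551, which blocks the β2-adrenergic receptor, was given on top of scopolamine in the 4 samples called ICI and left out in the 4 called Scop. All 8 samples therefore carry scopolamine, each is a pool of 4 corneas, and no untreated corneas are among them. The mice behind each pool, their strain, sex and age and the dose of ICI 118551 are unstated in the labels, so the p-values reflect nothing beyond the spread among these 8 pools.

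The respiratory chain sits in the inner mitochondrial membrane. Complexes I and II pass electrons from NADH and succinate to coenzyme Q, complex III passes them on to cytochrome c and complex IV to oxygen, and complexes I, III and IV pump protons whose return drives the ATP synthase. Most subunits are encoded in the nucleus and imported, while a small core of each proton-moving complex is encoded in mitochondrial DNA. The corneal epithelium takes its oxygen mainly from the tear film and air and relies heavily on glycolysis, and the corneal endothelium, whose ion pumps keep the cornea clear, is rich in mitochondria.

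Values are FPKM, the fragments of a gene scaled by its length and by the depth of the library, as the authors deposited them. The depth of a library, as whole fragments recovered from the FPKM, lay between 34354346 and 39885822. Krt12, a keratin that marks corneal epithelium, stood between 15374 and 16247 FPKM in ICI and between 15153 and 18414 FPKM in Scop, and all 7 epithelial markers passed the expression filter. Markers of other corneal cells set some libraries apart. The summed level of the 6 tested keratocyte (stromal cell) markers was 1565 to 2155 FPKM in ICI and 559 to 1873 FPKM in Scop, lowest in Scop replicate 3, and that of the 6 endothelial markers was 264 to 581 FPKM in ICI and 218 to 389 FPKM in Scop, highest in ICI replicate 1. Of the striated muscle and brown fat markers, 0 passed the filter. Loci that collect ribosomal RNA reads (Gm26917, AY036118 and Lars2) also set libraries apart: their summed level was 3826, 3850.1, 3995 and 3854 FPKM in ICI, against 717, 954, 1177 and 5113 FPKM in Scop. The sums were alike in ICI and lower in Scop replicates 1 to 3, while Scop replicate 4 was above every ICI sample. All 3 loci were higher in ICI at an unadjusted p under 0.05 in limma's test (smallest adjusted p = 0.281), with a median log2 fold change, ICI minus Scop, of 1.45. In whole corneas, fewer cells of a type and less RNA per cell cannot be told apart.

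Most members were abundant transcripts. Of the 83 members with a mean of at least 0.5 FPKM, the filter for testing, 89.2% had a mean of 20 FPKM or more, against 23.7% of all 12100 genes tested. Their summed FPKM was 7724, 6951, 7301 and 7341 in ICI replicates 1 to 4, against 7013, 7635, 7307 and 7303 in Scop replicates 1 to 4. The groups thus covered the same range, with means of 7329 ± 316 FPKM in ICI and 7314 ± 254 FPKM in Scop (the SD of 4 samples, which ± gives throughout). Together the members took 1.58% to 1.74% of all FPKM of a library.

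**Figure D1:**
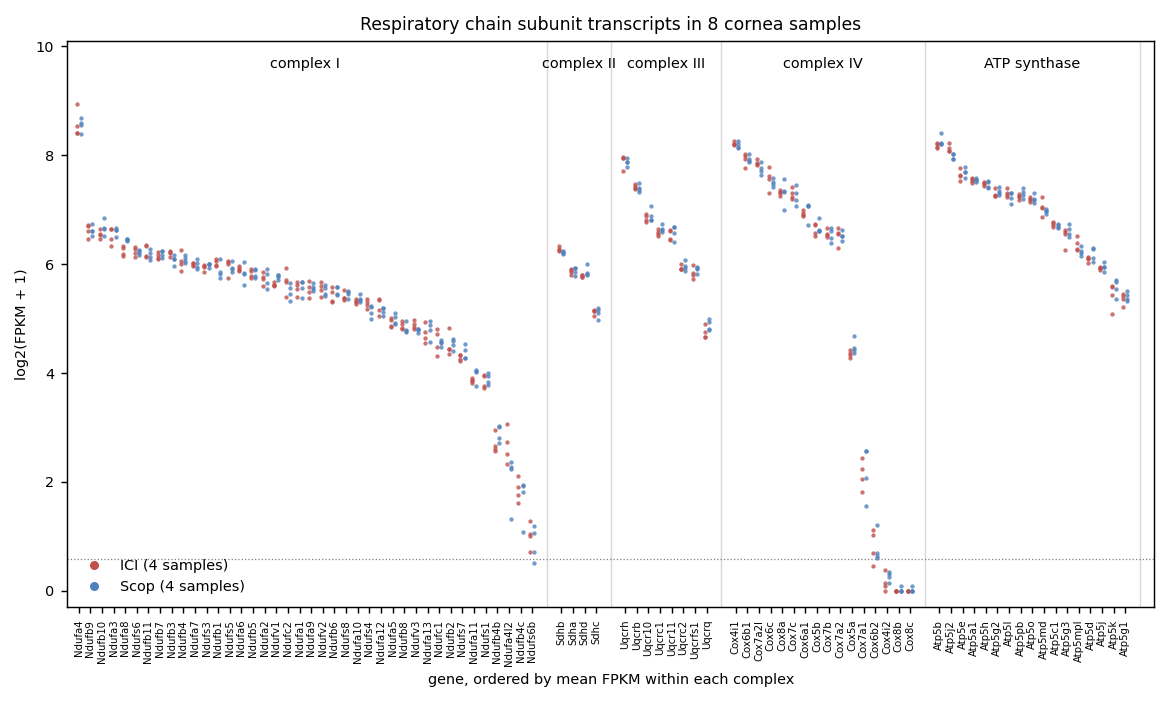
Level of 85 of the 86 members in each sample, as log2(FPKM + 1), ordered by mean within each complex; red points are the 4 ICI samples and blue points, to their right, the 4 Scop samples, and the dotted line marks 0.5 FPKM. Ndufa4 lies highest, most members lie in a band that ICI and Scop share, and the isoforms and gene copies of complexes I and IV fall away at the right end of their panels.

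Ndufa4 was the highest member in all 8 libraries. It is named for complex I, but its product is now counted with complex IV, and it stood at 488, 338, 370.0 and 338 FPKM in ICI, against 332, 372, 408 and 382 FPKM in Scop. After it came Atp5b (β subunit, which carries the catalytic sites of the ATP synthase) with a mean of 297 FPKM over the 8 samples, Cox4i1 (a nuclear subunit of complex IV) with 293, Atp5j2 (subunit f of the ATP synthase) with 265, Cox6b1 (complex IV) with 243 and Uqcrh (the hinge protein of complex III) with 235 FPKM. In all, 23 members had a mean of 100 FPKM or more. Complex II was lower, with Sdhb, the iron-sulfur subunit, at 74.9 FPKM, Sdha, the flavoprotein that oxidises succinate, at 57.4, and the membrane anchors Sdhd and Sdhc at 55.5 and 33.6 FPKM. Among the core subunits of complex I, which carry its flavin and iron-sulfur clusters, levels ran between 13.6 FPKM for Ndufs1 and 61.3 FPKM for Ndufs3. The subunits of a single complex thus differed widely in transcript level per length, although most are present once per complex.

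The isoform pairs showed which version the cornea used. Cox4i1 was 1797-fold above Cox4i2, its hypoxia- and lung-associated counterpart, and Cox6b1 was 312-fold above the testis isoform Cox6b2 in mean FPKM. Cox7a2 was 25.4-fold above Cox7a1, the isoform of heart, muscle and brown fat, which stood at 3.45 ± 0.812 FPKM in ICI and 3.74 ± 1.44 FPKM in Scop. The liver-type, ubiquitous Cox8a was at 158 ± 4.70 FPKM in ICI and 159 ± 24.7 FPKM in Scop. The muscle isoform Cox8b and the testis isoform Cox8c were each above 0 in 1 library only. Cox8b was at 0.0687 FPKM in Scop replicate 1, and Cox8c at 0.0609 FPKM in Scop replicate 3. Those 2 genes and Cox4i2, at 0.122 ± 0.134 FPKM in ICI and 0.204 ± 0.0767 FPKM in Scop, are the 3 members below the filter. The isoforms of muscle were thus low or near 0, as were the muscle markers.

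Of the 3 genes for the identical c subunit of the rotor ring, Atp5g2 gave the most, with 156 ± 7.37 FPKM in ICI and 160.3 ± 6.93 FPKM in Scop. It was 1.69-fold above Atp5g3 and 3.88-fold above Atp5g1. Atp5g1 took 20.5% ± 1.04 of the summed level of Atp5g1 and Atp5g2 in ICI and 20.5% ± 1.35 in Scop, and the balance of these genes thus differed by less than the spread within a group. Ndufb4b, Ndufb4c and Ndufs6b are near copies of Ndufb4 and Ndufs6 in the annotation (Ndufs6b as a pseudogene), with means of 5.99, 2.47 and 0.952 FPKM. Their fragments may belong in part to the parent genes, so these values are uncertain.

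Setting ICI against Scop asks whether β2-adrenergic blockade goes with a different level of these transcripts in the dry eye cornea. Among the subunits, 0 of 83 passed limma's test (linear models with a shared estimate of the spread, on log2(FPKM + 1), two-sided) at a Benjamini-Hochberg adjusted p under 0.05, and over all 12100 genes the share was 0.00%. At an unadjusted p under 0.05, 3 members were higher in ICI (3.61%, against a background of 4.56% of all genes tested) and 2 were lower (2.41%, against 7.46%). Limma-voom on the recovered fragments called 0 members after adjustment, and 2 higher and 2 lower of 80 without it, beside 4.28% higher and 7.76% lower of the 12044 genes in that fit. The ribosomal RNA loci and the stromal and endothelial markers differ between the libraries compared here, and their part in these counts was not tested. Quantile normalisation gave 6 higher and 2 lower members, and 728 higher and 717 lower over all genes, where the FPKM as deposited gave 552 higher and 903 lower.

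The estimates clustered close to 0. Their median log2 fold change, ICI minus Scop, was -0.01, beside -0.02 over all genes tested. By complex the medians were -0.001 for complex I, 0.0006 for complex II, -0.05 for complex III, 0.006 for complex IV and -0.01 for the ATP synthase. Of the 83 estimates, 38 were above 0 and 45 below, beside 5391 above and 6709 below over all 12100 genes tested.

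The intervals of these estimates were narrow. For 75 of the 83 members (90.4%) the whole 95% interval of limma lay within a 1.3-fold difference in either direction, beside 77.4% of all genes tested. Narrow intervals go with abundance, and at a mean of 20 FPKM or more the shares were 72 of 74 members (97.3%) and 89.6% of 2866 genes. The 8 members whose interval reached beyond 1.3-fold were Ndufc2 and Atp5k among those above 20 FPKM, and Ndufa4l2, Ndufb4b, Ndufb4c, Ndufs6b, Cox7a1 and Cox6b2 among the low ones. At a limit of 1.25-fold the counts of members were the same, 75 and 72, beside 65.6% of all genes tested and 82.6% of those at 20 FPKM or more. Within 1.2-fold were 61 members (73.5%), beside 48.0% of all genes tested, and within 1.5-fold were 82 (98.8%), all but Ndufa4l2, beside 93.5%.

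**Figure D2:**
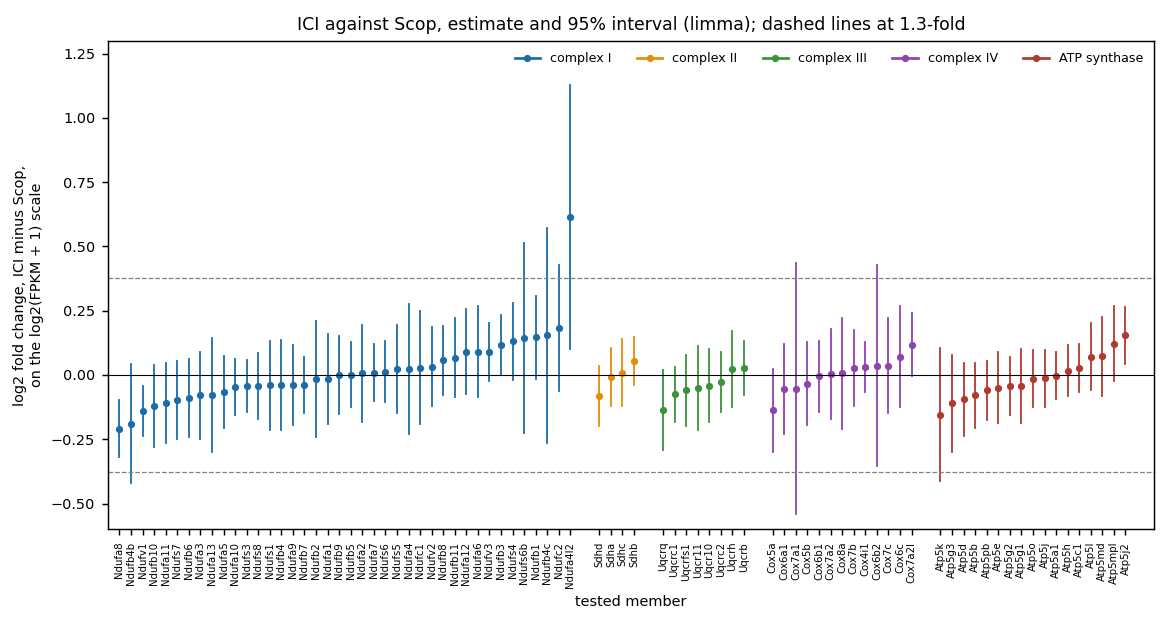
Estimated log2 fold change, ICI minus Scop, on the log2(FPKM + 1) scale for 82 of the 83 tested members (points) with the 95% interval of limma (bars), sorted within each complex; dashed lines mark 1.3-fold. The intervals of 74 of the 82 stay between the dashed lines, and Ndufa4l2 stands alone at 0.61 with a wide interval.

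The 5 members at an unadjusted p under 0.05 do different jobs, and by symbol they fall in 2 complexes. Ndufa8 is an accessory subunit of complex I with cysteine motifs, on the side that faces the intermembrane space, and its gene lies on chromosome 2, 36036324 to 36049338 (RefSeq, GRCm38.p6, 1-based, as are the positions below). It stood at 71.5, 70.2, 77.5 and 79.3 FPKM in ICI, against 85.8, 86.6, 87.6 and 85.3 FPKM in Scop. Every ICI sample was below every Scop sample, and the Scop samples lay close together. The means were 74.6 ± 4.48 FPKM in ICI and 86.3 ± 0.992 FPKM in Scop, a log2 fold change of -0.21 (SE 0.05, limma adjusted p = 0.197).

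Ndufv1 (chromosome 19, 4007499 to 4012755) encodes the flavoprotein of complex I that binds NADH and FMN, where electrons enter the chain. Its values were 47.6, 47.8, 49.8 and 48.3 FPKM in ICI, against 50.9, 53.1, 54.9 and 54.7 FPKM in Scop. Here too the groups did not overlap, with a log2 fold change of -0.14 (SE 0.04, limma adjusted p = 0.292). The remaining core subunits differed less, with Ndufs1 at 13.4 ± 1.24 FPKM in ICI and 13.8 ± 1.08 FPKM in Scop, and Ndufs7 at 18.5 ± 0.747 FPKM in ICI and 19.9 ± 1.86 FPKM in Scop. Of the 7 core subunits, 6 estimates were below 0 (beside 6709 of all 12100 genes tested), only that of Ndufv1 at an unadjusted p under 0.05.

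Atp5j2 (chromosome 5, 145183704 to 145191541) encodes subunit f, a small protein of the membrane part of the ATP synthase. It was at 298, 268, 281 and 269 FPKM in ICI, against 244, 258, 241 and 258 FPKM in Scop. All ICI samples lay above all Scop samples, and the log2 fold change was 0.15 (SE 0.05, limma adjusted p = 0.293). Groups without overlap were thus found for 3 members (3.61%, beside 6.98% of all genes tested), 1 higher (1.20%, beside 2.63%) and 2 lower (2.41%, beside 4.36%).

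Ndufb3 (chromosome 1, 58586397 to 58595964), a small subunit of the membrane arm of complex I, stood at 74.5, 69.5, 73.3 and 72.8 FPKM in ICI, against 67.2, 71.0, 61.7 and 67.2 FPKM in Scop. ICI replicate 2 lay within the range of Scop, so the groups overlapped. The log2 fold change was 0.12 (SE 0.05, limma adjusted p = 0.402).

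Ndufa4l2 (chromosome 10, 127509274 to 127517154) encodes a relative of Ndufa4 that is induced under low oxygen and is known for its expression in pericytes. It was low, at 7.39, 5.68, 4.05 and 4.70 FPKM in ICI, against 4.14, 3.84, 1.51 and 3.73 FPKM in Scop, from 184 to 335 recovered fragments in ICI and 60 to 191 in Scop. ICI replicate 3 lay within the range of Scop, and Scop replicate 3 lay far below all the others. The log2 fold change was 0.61 (SE 0.23, limma adjusted p = 0.341), the largest estimate among the members. It was 0.37 without Scop replicate 3, the library with the lowest keratocyte and endothelial marker sums, and 0.48 without ICI replicate 1, the library with the highest of both, where its unadjusted p was 0.0697. Of the pericyte and vascular list 5 of 8 markers passed the filter (Pecam1, Kdr, Rgs5, Notch3 and Pdgfrb), and Cdh5, Kcnj8 and Abcc9 were below it. The summed level of the 5 was 36.3 to 39.6 FPKM in ICI and 33.8 to 45.5 FPKM in Scop. Much of this sum came from 1 gene, with a mean of 26.5 FPKM. The median level of the 5 was 3.46 to 4.14 FPKM in ICI and 1.93 to 4.73 FPKM in Scop, lowest in Scop replicate 3. The part of pericytes and vascular cells in the Ndufa4l2 values was not tested. Exons of Ndufa4l2 overlap those of Shmt2 on the opposite strand, and since the strandedness of the libraries is unstated, fragments of the 2 genes may have been mixed.

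**Figure D3:**
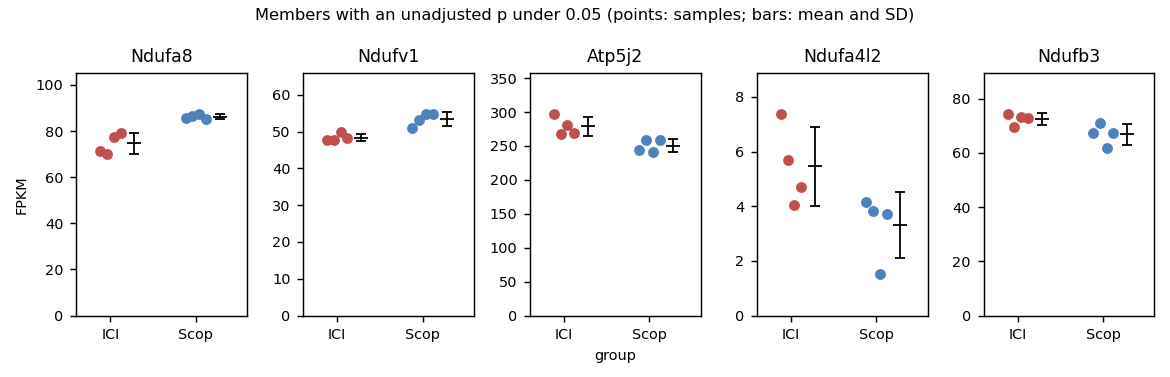
FPKM of the 5 members with an unadjusted p under 0.05, with ICI (red) at the left and Scop (blue) at the right of each panel; points are samples and bars the mean and SD of 4 samples. Ndufa8, Ndufv1 and Atp5j2 show no overlap between ICI and Scop, Ndufb3 and Ndufa4l2 do.

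Over the 18 alternative settings, Ndufa8 and Atp5j2 stayed at an unadjusted p under 0.05 in all, Ndufv1 in 17 and Ndufb3 in 10. Ndufa4l2 did in 15 of the 17 that tested it, not without ICI replicate 1 or without ICI replicate 2. None of the members passed the adjusted threshold under any of the settings.

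The promoters of the 3 members without overlap are shown for their sequence context, as 250 bases before and 50 after the RefSeq transcript start (GRCm38.p6, all on the minus strand, written 5′ to 3′). Capitals mark a match to a motif searched on both strands. These were the NRF1 letters GCGCANGCG, the YY1 letters AAGATGGC, the ETS letters CCGGAAG and the hypoxia response letters ACGTG. NRF1, the ETS factor GABP and YY1 are known regulators of respiratory chain genes. The capitals show a pair of NRF1 matches in Ndufa8 (chr2:36049289-36049588), a YY1 match in Atp5j2 (chr5:145191492-145191791) and, in Ndufv1 (chr19:4012706-4013005), ACGTG read on both strands in overlapping positions.
Ndufa8: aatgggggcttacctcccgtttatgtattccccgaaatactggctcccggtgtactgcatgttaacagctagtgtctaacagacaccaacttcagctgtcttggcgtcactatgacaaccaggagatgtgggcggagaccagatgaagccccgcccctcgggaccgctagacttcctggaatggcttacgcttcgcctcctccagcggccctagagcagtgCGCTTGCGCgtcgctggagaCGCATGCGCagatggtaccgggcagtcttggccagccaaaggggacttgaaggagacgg
Ndufv1: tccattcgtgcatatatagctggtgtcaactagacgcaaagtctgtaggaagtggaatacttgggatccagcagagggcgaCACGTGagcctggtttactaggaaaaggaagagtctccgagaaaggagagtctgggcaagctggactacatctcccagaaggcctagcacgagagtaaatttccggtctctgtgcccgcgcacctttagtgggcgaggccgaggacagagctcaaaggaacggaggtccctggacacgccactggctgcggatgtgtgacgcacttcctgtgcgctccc
Atp5j2: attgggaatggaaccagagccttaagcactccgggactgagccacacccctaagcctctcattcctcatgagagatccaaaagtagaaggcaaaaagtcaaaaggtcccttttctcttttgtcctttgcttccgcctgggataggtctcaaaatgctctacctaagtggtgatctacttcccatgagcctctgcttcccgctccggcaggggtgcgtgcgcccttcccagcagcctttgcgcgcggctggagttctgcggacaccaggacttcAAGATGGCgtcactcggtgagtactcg

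The motifs differed between these promoters, and none of those searched was in all 3. Of the 86 members 69 had a promoter in the RefSeq table. Of the 69, 20 (29.0%) held GCGCANGCG, against 7.04% of the 27018 genes with a promoter, and 17 (24.6%) held CCGGAAG, against 9.93%. AAGATGGC was in 10 (14.5%), against 3.19%, and ACGTG in 18 (26.1%), against 21.8%. The median GC content was 57.5% in the promoters of the members and 52.7% in all promoters, and how far it goes with the share of such GC-rich letters was not tested. The fixed form GCGCATGCG, which also counts as a match to the looser one, was in 8 of the 69 (11.6%), against 1.95%. With 1 more base, a C at the end, the fixed form was in 5 members (7.25%), against 1.07%, and the looser one in 17 (24.6%), against 5.19%. The shorter fixed form is shown in capitals for all 8 within 30 bases, and where both strands match the capitals run together.
Ndufa8 (chr2:36049328-36049357, minus strand): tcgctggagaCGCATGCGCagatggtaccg
Ndufa11 (chr17:56717692-56717721, plus strand): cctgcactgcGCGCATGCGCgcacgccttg
Uqcrc1 (chr9:108936668-108936697, plus strand): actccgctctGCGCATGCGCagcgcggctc
Uqcr11 (chr10:80406807-80406836, minus strand): atcgccttcaCGCATGCGCtatacgtctgc
Cox6a1 (chr5:115349101-115349130, minus strand): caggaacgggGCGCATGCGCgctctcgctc
Atp5g2 (chr15:102671070-102671099, minus strand): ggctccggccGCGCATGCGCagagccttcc
Atp5k (chr5:108434430-108434459, minus strand): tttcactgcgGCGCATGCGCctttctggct
Atp5l (chr9:44920963-44920992, minus strand): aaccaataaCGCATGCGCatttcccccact

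These 8 genes serve complexes I, III and IV and the ATP synthase. Their log2 fold changes, ICI minus Scop, were -0.21 for Ndufa8, -0.11 for Ndufa11, -0.08 for Uqcrc1, -0.05 for Uqcr11, -0.06 for Cox6a1, -0.04 for Atp5g2, -0.15 for Atp5k and 0.07 for Atp5l. Apart from Ndufa8, none of the 8 had an unadjusted p under 0.05 in limma's test.

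By symbol, complex I held 4 of the 5 members named above, with 2 of its 41 genes higher (4.88%, beside 4.56% of all genes tested) and 2 lower (4.88%, beside 7.46%). In all, 20 of its estimates were above 0 and 21 below, and its summed level was 2205 ± 152 FPKM in ICI and 2206 ± 87.8 FPKM in Scop. These 41 include 3 gene copies, Ndufa4l2, which is among the 2 higher, and Ndufa4, whose product is now counted with complex IV. Ndufa4 and Ndufa4l2 alone summed to 389 ± 72.2 FPKM in ICI and 377 ± 30.2 FPKM in Scop. Ndufb1 and Ndufs4, an accessory subunit needed for stability of the complex, came next among those above 0. Ndufs4 stood at 38.4, 35.1, 36.9 and 39.8 FPKM in ICI, against 30.7, 36.8, 36.2 and 33.4 FPKM in Scop, and Ndufb1 at 61.4, 62.1, 65.4 and 67.4 FPKM in ICI, against 52.6, 67.1, 55.1 and 57.2 FPKM in Scop. In both the groups overlapped, with limma adjusted p = 0.470 for Ndufs4 and 0.461 for Ndufb1. Below 0, Ndufb10 was at 92.7 ± 5.03 FPKM in ICI and 101 ± 9.94 FPKM in Scop (log2 fold change -0.12, SE 0.07, limma adjusted p = 0.533), and the log2 fold change was -0.06 without Scop replicate 2.

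In complex II none of the 4 subunits had an unadjusted p under 0.05. Sdhb was at 76.4 ± 2.31 FPKM in ICI and 73.4 ± 1.29 FPKM in Scop, and Sdhd at 53.9 ± 0.823 FPKM in ICI and 57.2 ± 3.78 FPKM in Scop. Sdha differed by a log2 fold change of -0.01 (95% interval -0.12 to 0.10), and Sdhc by 0.01 (95% interval -0.12 to 0.14).

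Complex III had estimates below 0 for 6 of its 8 subunits (beside 6709 of all 12100 genes tested), 0 of them at an unadjusted p under 0.05. Its 2 core proteins and the Rieske iron-sulfur protein Uqcrfs1 summed to 206, 207, 214 and 217 FPKM in ICI, against 221, 216, 221 and 220.4 FPKM in Scop. These sums overlapped in ICI replicate 4 and Scop replicate 2 only. Uqcrc1, a core protein, was at 94.5 ± 3.83 FPKM in ICI and 99.7 ± 3.89 FPKM in Scop. Uqcrq, a small subunit, had the smallest p of the complex, at 28.9, 24.3, 24.4 and 25.9 FPKM in ICI, against 27.1, 29.6, 26.6 and 30.8 FPKM in Scop (log2 fold change -0.14, SE 0.07, limma adjusted p = 0.471).

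Cytochrome c1, encoded by Cyc1, is a nuclear subunit of complex III that the symbols used here leave out. It stood at 34.3, 32.3, 33.7 and 31.9 FPKM in ICI, against 37.7, 40.5, 38.2 and 40.5 FPKM in Scop. All ICI samples were below all Scop samples, as for 4.36% of all genes tested. Its log2 fold change was -0.24 (SE 0.05, limma adjusted p = 0.162).

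In complex IV, where 13 of the 16 members were tested, 8 estimates were above 0 and 5 below, and none had an unadjusted p under 0.05. Cox7a2l, whose product takes part in joining complexes III and IV into supercomplexes, came closest, at 226, 242, 229 and 226 FPKM in ICI, against 232, 208, 198 and 215 FPKM in Scop. Scop replicate 1 lay within the range of ICI, and the log2 fold change was 0.12 (SE 0.06, limma adjusted p = 0.429). Cox5a, which binds next to the catalytic core, was at 19.4 ± 0.821 FPKM in ICI and 21.5 ± 2.26 FPKM in Scop (log2 fold change -0.14, limma adjusted p = 0.485), and the log2 fold change was -0.07 without Scop replicate 3, the highest sample. Cox8a differed little in mean but spread widely in Scop, with 127 FPKM in Scop replicate 1 and 187 in Scop replicate 2.

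Of the 17 estimates of the ATP synthase, 6 were above 0 and 11 below, beside 5391 above and 6709 below over all 12100 genes tested. Of the 5 small membrane subunits, Atp5j2, Atp5l, Atp5md and Atp5mpl had estimates above 0 and Atp5k below. Their summed level was 690.4 ± 45.6 FPKM in ICI and 645 ± 19.8 FPKM in Scop. Atp5j2, already named by its p, made up 279 ± 13.8 FPKM of this sum in ICI and 251 ± 9.11 FPKM in Scop. Of the 5 subunits of the F1 head and central stalk, 4 were below 0, and their summed level was 844 ± 20.9 FPKM in ICI and 871 ± 34.4 FPKM in Scop. All 3 c-ring genes and 3 of the 4 peripheral stalk genes were below 0. Apart from Atp5j2, the 16 other members of this complex had an unadjusted p above 0.05. The catalytic pair Atp5a1 and Atp5b gave log2 fold changes of -0.004 (95% interval -0.09 to 0.09) and -0.08 (95% interval -0.20 to 0.05). That of Atp5b was -0.03 without Scop replicate 3.

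The mean level of the subunits differed more between single libraries than between the groups. The mean over members of the difference from each member's own 8-sample mean, on the log2(FPKM + 1) scale, was 0.07, -0.07, -0.002 and 0.004 in ICI replicates 1 to 4, and -0.06, 0.07, -0.02 and 0.004 in Scop replicates 1 to 4. In each group, then, 1 library lay clearly above and 1 clearly below. The lowest value of a member fell in ICI replicate 2 for 29 members and in Scop replicate 1 for 20, and the highest in ICI replicate 1 for 21 and in Scop replicate 2 for 27.

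The pattern was shared by the complexes in unequal degree. In ICI replicate 1 the deviation was 0.09 for complex I, 0.08 for complex IV and 0.06 for the ATP synthase, but 0.006 for complex II and 0.02 for complex III. ICI replicate 2 was below 0 for every complex, between -0.08 and -0.04, and Scop replicate 2 above 0 for every complex, between 0.06 and 0.09. In Scop replicate 1 complex IV was lowest at -0.10, and complex II stood at 0.01.

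Other gene families gave the same libraries other positions. The 78 mitochondrial ribosomal protein genes also had their lowest deviation in ICI replicate 2 (-0.10) and their highest in Scop replicate 2 (0.11), but were at 0.02 in ICI replicate 1 and 0.01 in Scop replicate 1. The 82 cytosolic ribosomal protein genes stood at 0.04 in ICI replicate 1, -0.01 in ICI replicate 2, -0.03 in Scop replicate 1 and 0.12 in Scop replicate 2. Over all genes tested the deviation stayed between -0.01 and 0.02 in ICI and between -0.05 and 0.05 in Scop. ICI replicate 1, high for the subunits, was also the library with the highest sum of endothelial markers, and Car3, an endothelial marker, was at 285 FPKM there, against 70.8 to 87.2 in the other ICI samples. The next highest endothelial sum was 389 FPKM in Scop replicate 1, where the subunits stood at -0.06. In Scop replicate 2, where the subunits stood at 0.07, it was 319 FPKM. The lowest sum, 218 FPKM, was in Scop replicate 3, where the subunits stood at -0.02. The part of the cell mix in these library differences was not tested.

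**Figure D4:**
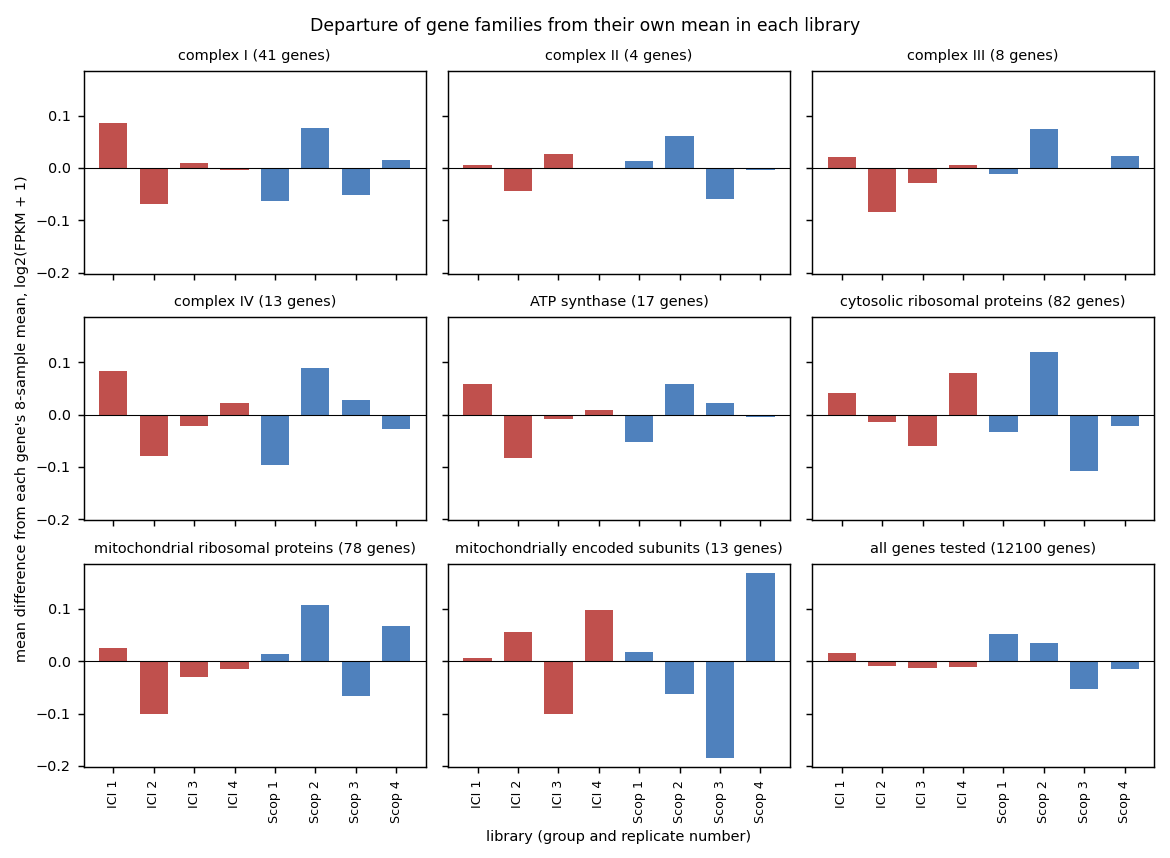
Mean difference of a family's genes from each gene's own 8-sample mean, on the log2(FPKM + 1) scale, in each library, with the 4 ICI libraries (red) left of the 4 Scop libraries (blue). The 5 complexes are low in ICI replicate 2 and high in Scop replicate 2; the mitochondrially encoded subunits follow another order, with Scop replicate 3 lowest at -0.18 and Scop replicate 4 highest at 0.17.

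Spread within a group was small for most members. The median coefficient of variation (SD over mean) was 5.90% in ICI and 6.24% in Scop, beside 8.49% in ICI and 9.36% in Scop over all genes tested, and it was under 10% for 64 members in ICI and 67 in Scop. Ndufa8 was the tightest member above 20 FPKM within Scop, at 1.15%, and Ndufa4 the widest within ICI, at 18.5%, through ICI replicate 1.

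The 13 subunits encoded in mitochondrial DNA had a summed level of 7349 ± 451 FPKM in ICI and 6932 ± 692 FPKM in Scop, about that of all the nuclear members together. COX1, the catalytic subunit of complex IV, was at 3781, 3779, 3437 and 3843 FPKM in ICI, against 3486, 3331, 2960.3 and 3631 FPKM in Scop. The groups overlapped, and the log2 fold change was 0.15 (SE 0.07, limma adjusted p = 0.445). It was 0.09 without Scop replicate 3 and 0.07 after quantile normalisation. Of the 13, 0 were higher and 0 lower at an unadjusted p under 0.05, and their median log2 fold change was 0.07, beside -0.02 over all genes. ATP8 and ATP6, and ND4L and ND4, overlap on the mitochondrial genome, so the values of these genes are uncertain.

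Genes around the chain were described from lists chosen with earlier results of these data known. Of 48 assembly factors, which build the complexes but do not stay in them, 1 was higher in ICI at an unadjusted p under 0.05 (2.08%, beside 4.56% of all genes tested) and 2 were lower (4.17%, beside 7.46%). The first was Surf1, for complex IV, and the others Sdhaf1, for complex II, and Ndufaf4, for complex I. With a library left out, the number higher lay between 0 and 2. The number lower lay between 0 (without Scop replicate 4, beside 6.31% of all genes) and 7 (without Scop replicate 3, beside 9.98%). Surf1 stood at 16.5, 20.2, 17.8 and 17.0 FPKM in ICI, against 16.7, 16.3, 14.8 and 15.6 FPKM in Scop, with overlap. The median over the list was -0.03, beside -0.02 over all genes.

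Of 13 tested regulators of mitochondrial biogenesis, 0 were higher and 3 lower (23.1%, beside 7.46% of all genes). The number lower was 1 without Scop replicate 2 (beside 5.25% of all genes) and without Scop replicate 4 (beside 6.31%). It was also 1 at a filter of 5 FPKM (beside 9.53%), which leaves genes with a lower mean, such as Polrmt, untested. The 3 genes were Polrmt, the mitochondrial RNA polymerase, Tfb2m, its transcription factor, and Pprc1, a coactivator. Polrmt was at 2.70, 2.29, 2.49 and 2.72 FPKM in ICI, against 3.06, 2.94, 3.19 and 3.37 FPKM in Scop (log2 fold change -0.22, SE 0.07, limma adjusted p = 0.293). Its groups did not overlap, as for 4.36% of all genes tested in this direction. Ppargc1a and Ppargc1b, the best known coactivators of this class, were below the filter, with no value above 0.615 FPKM in any library.

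Among the 12 genes of cytochrome c and coenzyme Q, 0 were higher and 2 lower (16.7%, beside 7.46% of all genes tested), Cyc1 and the coenzyme Q methyltransferase Coq5. The number lower was 1 without ICI replicate 2 (beside 5.11% of all genes), without Scop replicate 1 (beside 6.04%) or without Scop replicate 2 (beside 5.25%). Among the 17 genes of the tricarboxylic acid cycle, 0 were higher and 2 lower (11.8%, beside 7.46%). Without Scop replicate 1, 1 was higher (beside 5.51% of all genes). Ogdh, the oxoglutarate dehydrogenase subunit, stood at 25.8 ± 1.58 FPKM in ICI and 30.3 ± 0.778 FPKM in Scop (limma adjusted p = 0.193), and Mdh2, malate dehydrogenase, at 84.7 ± 2.67 FPKM in ICI and 95.4 ± 3.43 FPKM in Scop (limma adjusted p = 0.232). Both were without overlap between the groups, as were 4.36% of all genes tested in this direction. Among the 19 genes of mitochondrial mass and dynamics 0 were higher and 3 lower (15.8%, beside 7.46%), namely the prohibitin Phb2, the import channel Tomm40 and the chaperonin Hspe1. The number higher was 2 without Scop replicate 2 (beside 4.69% of all genes), and the number lower was 5 without Scop replicate 3 (beside 9.98%). Phb2 was at 50.7 ± 1.75 FPKM in ICI and 58.0 ± 1.48 FPKM in Scop (limma adjusted p = 0.193). None of these genes passed the adjusted threshold, and the difference between any of these lists and the subunits was not tested.

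**Figure D5:**
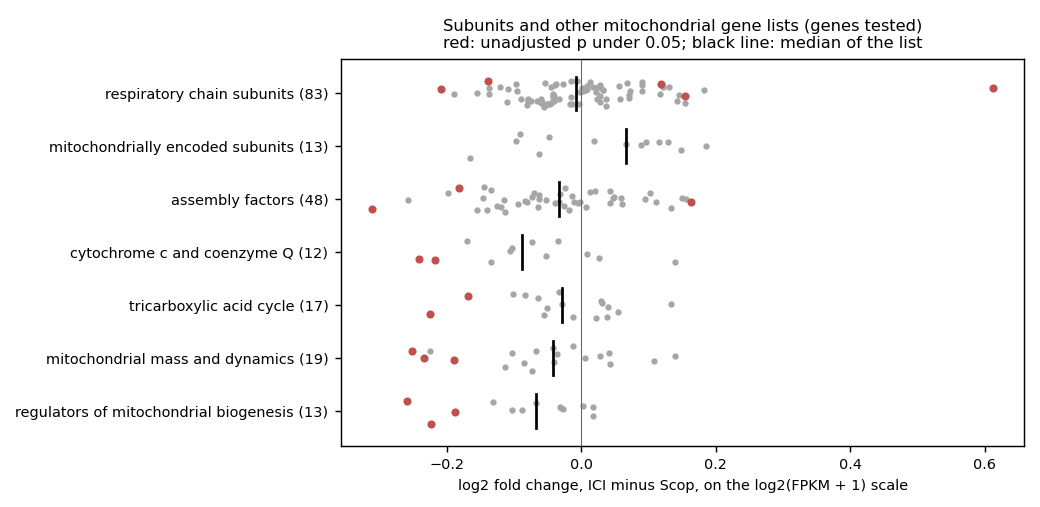
Log2 fold change, ICI minus Scop, on the log2(FPKM + 1) scale of every tested gene of the respiratory chain subunits and of 6 other mitochondrial lists; points are genes, red at an unadjusted p under 0.05, and black lines are list medians. The median of the 83 subunits lies at -0.01, that of the 13 mitochondrially encoded subunits at 0.07 and that of the 12 genes of cytochrome c and coenzyme Q at -0.09.

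The table counts genes without a stated strand, and 30 of the 85 members found in the GENCODE M21 annotation share exon positions with another gene, 26 with a gene on the opposite strand. An example is Atp5j with Gabpa. Values of such members are uncertain by the fragments of the neighbour. Ndufa8, Ndufv1, Atp5j2 and Ndufb3 had no such overlap.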

How the data were processed

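The samples were 4 ICI and 4 Scop pools of 4 mouse corneas each. Per the labels' protocols, RNA was taken up with a Qiagen kit, and Vazyme libraries were run on an Illumina NovaSeq machine. The submitters' processing notes name fastp, HISAT2, HTSeq and the build mm10. Versions and roles of these tools, the annotation and the strandedness: not given in the sources used here. The authors deposited FPKM values, with 1 column for each sample and no stated scaling across samples, and the column names are the sample titles.

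Whole fragments were recovered from the steps between FPKM values (relative tolerance 5e-13 for ratios, 0.01 for whole numbers) for 99.7% of genes and 83 of the 86 members. A factor shared by all libraries would make them too low. Testing used limma 3.58.1 under R 4.3.3, by lmFit and a trended eBayes, two-sided, on log2(FPKM + 1). It covered all 12100 genes whose mean reached 0.5 FPKM, with Benjamini-Hochberg adjustment over them and a threshold of 0.05. That scale understates the fold changes of low genes. The procedure was also run on simulated fragments with a spread set by formula, and no result here rests on that run. Gene positions and promoters are from RefSeq (GRCm38.p6).

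The members and all lists were chosen with earlier results of these data known. Members named with values were those with the smallest p in each direction (at most 12), the highest 3 and lowest 2 of each complex, the isoform sets and the catalytic or core subunits. Of each other list at most 4 genes by p were named, and Car3 and Krt12 were chosen after their values were seen. So were the fold limits set on the intervals and the letters of the motifs: 1.25-fold and the longer NRF1 forms were used first, and 1.3-fold and the shorter forms were put in their place with the results known, so both are given. The 18 alternatives were pseudocounts of 0.1 and 5, filters of 5 FPKM or none, 3 other scalings, robust eBayes, limma-voom on recovered fragments, a replicate block, and each library left out in turn. For 1 member the values are not reported here by name; it is in all counts and sums.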

Additional observations from a re-analysis of the deposited data

Results flagged for a closer look

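A library was looked for that stood apart from the other 3 of its group, in 166 groups of 4 values for the members and 10 for the complexes, by its gap to the nearest value over the range of the group. This marked 9 groups, where chance marks about 1 in 20 groups, or about as many as were marked. In ICI, Ndufb2 was at 27.5 FPKM in ICI replicate 1, above 19.4 to 20.8 in the other samples, and Uqcrc2 was at 62.9 in ICI replicate 3, above 58.9 to 59.3. Low in ICI replicate 2 were Sdhc at 31.9 FPKM, below 34.1 to 34.4, and Uqcrh at 207 FPKM, below 246 to 248. In Scop, Atp5b was at 338 FPKM in Scop replicate 3, above 293 to 297, Cox5b at 114 in Scop replicate 2, above 96.6 to 97.5, and Cox6b2 at 1.32 in Scop replicate 1, above 0.526 to 0.629. Low in Scop were Cox6a1 at 105 FPKM in Scop replicate 1, below 133 to 134, and Ndufa4l2 at 1.51 FPKM in Scop replicate 3, below 3.73 to 4.14. Each of these is a single library and rests on 4 values.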

How the results depend on the processing

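The 48 genes checked were those with the smallest p, at most 12 members in each direction and at most 4 genes of each other mitochondrial list. Their 856 fold changes, recomputed over the 18 alternatives, all kept their direction and 0 passed the adjusted threshold. Genes picked by a small p are likely to keep their direction. The directions of members with estimates near 0 were not checked in this way. The size of the fold change moved by over 1.5 times for 22 of the 48 with a library left out, for 8 of them without Scop replicate 3, and for 8 at a pseudocount of 5. The count of members called after adjustment stayed at 0 in all. Over all genes that count was 0 in every alternative except leaving out a library, where it lay between 0 and 6 (1 without Scop replicate 1, 1 without Scop replicate 3 and 6 without Scop replicate 4). At an unadjusted p under 0.05 the members higher in ICI numbered 3 of 83 (beside 4.56% of all genes), and 6 after quantile normalisation (beside 6.02%). With a library left out they numbered between 1 and 6. There were 1 without ICI replicate 1 (beside 4.53% of all genes), 5 without ICI replicate 2 (beside 3.49%) and 6 without Scop replicate 2 (beside 4.69%). Those lower in ICI numbered 2 of 83 (beside 7.46% of all genes), and 1 after median-ratio scaling (beside 6.17%). With a library left out they numbered between 2 and 6, with 6 without Scop replicate 1 (beside 6.04%) and 5 without Scop replicate 3 (beside 9.98%). Members without overlap numbered 3 (3.61%, beside 6.98% of all genes tested), with 5 under median-ratio scaling, 6 under quantile normalisation, and between 5 and 9 with a library left out, where fewer samples make separation easier. Shares of all genes without overlap in those settings are not given here. The cause of the other shifts was not tested. The median log2 fold change of the members lay between -0.03 and 0.02 over the alternatives.

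The groups share replicate numbers. Deviations of same-numbered samples correlated at 0.29, -0.009, 0.14 and 0.08 across genes, and not every sample correlated best with its own number. The value for replicate 1 was the highest of all pairs. Such correlations cannot show whether same-numbered samples were handled together. With the replicate number as a block, 2 members were higher and 3 lower at an unadjusted p under 0.05, beside 5.31% higher and 7.18% lower of all genes, and 0 passed after adjustment.

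Precision is limited by 4 samples per group, and Ndufa4l2 rested on 60 fragments in Scop replicate 3. Intervals describe these pools of corneas. Small differences of the kind seen for Ndufa8, Ndufv1 and Atp5j2 did not pass the adjustment over all genes.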
